A study of Mus musculus with 8 samples.

Results

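The receptors that steer CD8+ T cells between blood, lymphoid tissue and inflamed sites were examined in activated OT-I T cells treated with GC7. The set holds 9 receptor genes of the 55536 in the count files: the chemokine receptors *Ccr2*, *Ccr7*, *Cxcr3*, *Cxcr4* and *Cxcr6*, the sphingosine-1-phosphate (S1P) receptors *S1pr1* and *S1pr4*, the leukotriene B4 receptor *Ltb4r1* and the UDP-sugar receptor *P2ry14*. They were selected by symbol with their difference between GC7 and Mock already known, so that their values in this contrast are given as a description, without a test. All 9 symbols matched an Ensembl gene of GRCm38, and all 9 passed the filter on low counts, which asked for more than 3 CPM (counts scaled to the size of the library) in at least 4 of 8 libraries.

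The cells were lymph node T cells of young C57BL/6 mice of either sex carrying the OT-I T cell receptor transgene on a Rag-1 knockout background, so that nearly all T cells see one peptide of chicken ovalbumin, SIINFEKL. All 8 cultures received 100 nM SIINFEKL for 2 days and then 20 ng/ml recombinant human IL-2 for 2 days. GC7 is a spermidine analogue that inhibits deoxyhypusine synthase (DHPS) and thereby the hypusination of the translation factor eIF5a. The paper also describes effects of GC7 that it takes to be independent of eIF5a. These kinds of effect were not told apart here. GC7 was present at 10 µM during the IL-2 phase in 4 cultures (GC7), and 4 cultures received the acetic acid vehicle (Mock). These are therefore effector cells grown in a dish with 1 receptor specificity, with no tissue, vessel or stromal source of ligand, and only mRNA was measured here, not receptor protein or migration.

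Chemokine receptors and the lipid and nucleotide receptors of this set are 7-transmembrane proteins that act mostly through the Gi class of G proteins, which turn a gradient of ligand into directed movement. Ccr7 reads Ccl19 and Ccl21 and brings T cells into lymph nodes, whereas S1pr1 reads the S1P of blood and lymph and lets them leave again. Cxcr3, with the interferon-induced ligands Cxcl9 and Cxcl10, Ccr2 and Cxcr6 direct effector cells to inflamed tissue. Cxcr4, the receptor for Cxcl12, retains cells in bone marrow, and Ltb4r1 (BLT1) reads leukotriene B4.

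Total counts ranged from 17528776 to 25284730 per library. The labelled cell type was borne out by its markers: all 8 CD8 T cell genes examined passed the filter, with summed levels of 8200 to 9747 CPM in Mock and 5517 to 7298 CPM in GC7. Of these 8 genes, 5 fell, and *Cd8a* rose. Of the markers of other cells, the 4 granulocyte genes had at most 1 count in any library, *Csf1r* at most 2, and *Ms4a1*, *Pax5*, *Siglech*, *Clec9a*, *Cdh5* and *Col3a1* none. Most of the signal in the other lists came from 1 gene each. The 4 CD4 and regulatory T cell genes summed to 93.7 to 98.0 CPM in Mock and 76.7 to 85.8 in GC7, nearly all from *Zbtb7b*, with *Cd4* at 2 to 9 counts per library. The 5 stromal and endothelial genes summed to 51.5 to 56.2 and 30.3 to 32.3 CPM, nearly all from *Pecam1*, which fell from 53.5 ± 2.30 to 30.7 ± 0.890 CPM (SD, n = 4). The B cell list of 5 genes summed to 7.02 to 10.1 CPM in Mock and 4.63 to 5.93 in GC7, mostly from *Cd79b*, the 6 macrophage genes to 8.44 to 11.1 and 5.73 to 9.77 CPM, mostly from *Cd68*, and the 3 NK cell genes to 1.05 to 1.74 and 1.004 to 2.37 CPM. The dendritic cell list of 5 genes summed to 4.61 to 6.42 and 4.51 to 5.26 CPM, but 2 of its genes moved in opposite directions, *Zbtb46* from 0.457 ± 0.158 to 4.11 ± 0.682 CPM and *Xcr1* from 5.14 ± 0.739 to 0.631 ± 0.187 CPM. The part of such cells in the receptor values was not tested. In bulk RNA such as this, fewer cells of a type and less RNA per cell cannot be told apart.

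All 9 receptors had a lower mean in GC7 than in Mock, and in 8 of them every GC7 library lay below every Mock library. Over all 11189 tested genes, 27.5% had every GC7 library below every Mock library, and 46.6% passed an adjusted p under 0.01, with 23.5% lower and 23% higher. By more than 2-fold, 5.31% were lower and 3.17% higher. 8 of the 9 differed by more than 2-fold and 4 by more than 4-fold, counts that follow from how the receptors were selected and from which nothing is read. Their median log2 fold change was -1.59, beside 0.02 for all tested genes. Mock 2 and GC7 3 held the most extreme value of their group for most of the receptors, and without both libraries the median of the 9 was -1.43.

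**Figure D1:**
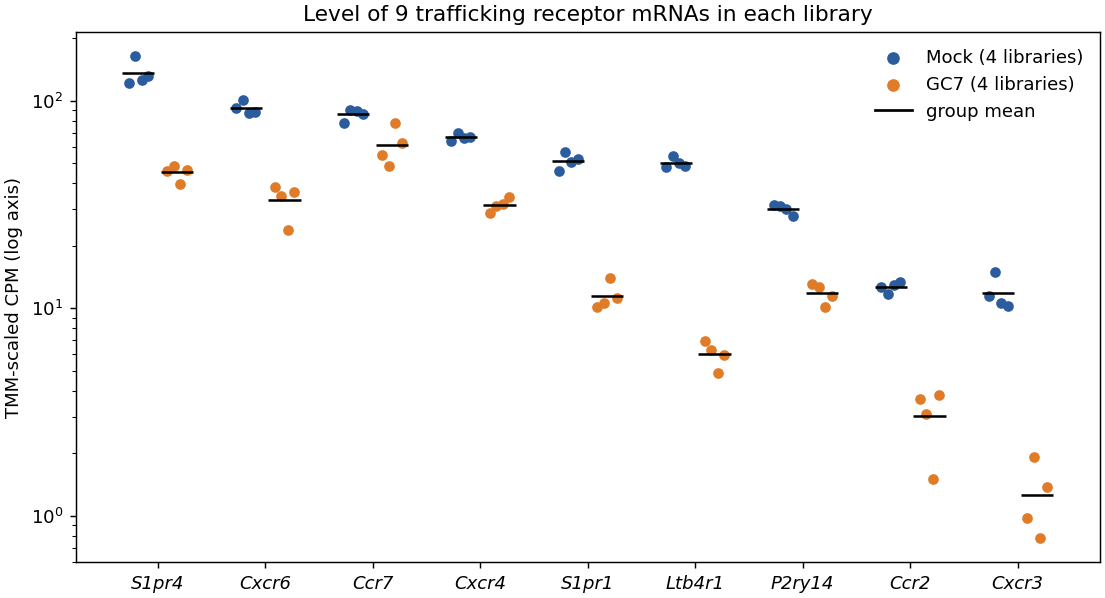
TMM-scaled CPM (log axis) of the 9 receptor genes in each Mock and GC7 library, with a line at each group mean (n = 4 per group). *Ccr7* is the gene whose groups overlap, and *Cxcr3* in GC7 lies between 0.78 and 1.91 CPM.

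*Ltb4r1* and *Cxcr3* showed the widest separation. *Ltb4r1* (ENSMUSG00000046908, chr14:55765962-55768494, plus strand, GRCm38) stood at 47.99, 54.4, 50.1 and 48.3 CPM in Mock 1 to 4 and at 6.96, 6.28, 4.85 and 5.97 CPM in GC7 1 to 4. The 4 Mock libraries lay close together and the 4 GC7 libraries far below them, with means of 50.2 ± 2.94 and 6.02 ± 0.878 CPM (SD, n = 4), an 8.34-fold difference (log2 fold change -3.05, standard error 0.100). *Cxcr3* (ENSMUSG00000050232, chrX:101731535-101734269, minus strand) stood at 11.5, 14.96, 10.5 and 10.2 CPM in Mock and at 0.974, 1.91, 0.781 and 1.38 CPM in GC7. Mock 2 was the highest library for this gene and no GC7 library reached the 3 CPM of the filter, so that *Cxcr3* entered the tested genes through the Mock group alone. The GC7 values rest on 14 to 42 counts per library, against 204 to 352 in Mock. The means of 11.8 ± 2.18 and 1.26 ± 0.500 CPM (SD, n = 4) differ 9.36-fold (log2 fold change -3.20, standard error 0.222).

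Promoters are shown for the pair with the widest separation and for *Cxcr4*, which with *Ccr7* had the narrowest. The windows are RefSeq entries of GRCm38.p6 from 250 bases before to 50 bases after the start site, written 5′ to 3′ on the strand of the gene. Capitals mark letters that match RUNX (TGTGGT or, on the other strand, ACCACA) or KLF (CACCC or GGGTG) motifs. Runx3 and Klf2 are transcription factors of T cells whose own mRNA values are given further on.
Ltb4r1 (chr14:55765712-55766011, plus strand): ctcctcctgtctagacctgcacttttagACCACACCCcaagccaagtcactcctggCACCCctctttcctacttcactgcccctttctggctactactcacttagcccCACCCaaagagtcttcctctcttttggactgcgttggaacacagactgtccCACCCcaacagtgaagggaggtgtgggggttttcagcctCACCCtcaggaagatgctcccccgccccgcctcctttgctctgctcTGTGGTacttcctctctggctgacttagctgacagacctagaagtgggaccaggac
Cxcr3 (chrX:101734098-101734397, minus strand): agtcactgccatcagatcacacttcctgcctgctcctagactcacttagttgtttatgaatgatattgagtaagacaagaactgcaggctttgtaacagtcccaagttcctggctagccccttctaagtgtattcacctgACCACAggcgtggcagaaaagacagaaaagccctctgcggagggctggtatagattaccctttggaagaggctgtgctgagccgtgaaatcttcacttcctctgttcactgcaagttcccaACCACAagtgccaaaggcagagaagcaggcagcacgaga
Cxcr4 (chr1:128592250-128592549, minus strand): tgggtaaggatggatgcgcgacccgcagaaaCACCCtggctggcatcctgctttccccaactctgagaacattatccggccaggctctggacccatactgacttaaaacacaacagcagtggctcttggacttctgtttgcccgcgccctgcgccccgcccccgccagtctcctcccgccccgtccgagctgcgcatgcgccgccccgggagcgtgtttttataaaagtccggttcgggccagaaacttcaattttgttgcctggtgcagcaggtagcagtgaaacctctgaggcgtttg
The *Ltb4r1* window holds 5 CACCC and 2 TGTGGT matches, the first TGTGGT match sharing letters with a CACCC. The *Cxcr3* window holds 2 TGTGGT matches and no CACCC. The *Cxcr4* window holds 1 CACCC and no TGTGGT. Of the 9 receptors, 7 had a promoter entry (all but *Ccr7* and *S1pr1*), with 10 entries in all. CACCC occurred for 4 of the 7, TGTGGT for 3 (*Cxcr3*, *Cxcr6* and *Ltb4r1*), the forkhead motif GTAAACA for 1 (*P2ry14*), and the hypoxia motif ACGTG for none, each searched on both strands. The *Ccr2* window held no match to any of these motifs, and *Ccr2* differed 4.21-fold. The *S1pr4* window held no TGTGGT at a 3.01-fold difference, and the *Cxcr6* window held 1 at a 2.77-fold difference. Among 32851 promoter entries of the same length, 57.5% hold CACCC, 16.8% TGTGGT, 3.65% GTAAACA and 19.6% ACGTG. These shares are per entry, whereas the receptor counts are per gene, so the units are not alike. *P2ry14* has 4 entries, 2 of which overlap and hold the same GTAAACA match. These are matches of letters and not measured binding, and whether they bear on the receptor values was not tested.

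The S1P receptors were both lower in GC7. *S1pr1* (ENSMUSG00000045092, chr3:115710433-115715072, minus strand) stood at 45.8, 56.7, 50.7 and 52.5 CPM in Mock and at 10.1, 10.6, 14.01 and 11.2 CPM in GC7. Its groups were far apart, with means of 51.4 ± 4.51 and 11.4 ± 1.76 CPM (SD, n = 4) and a 4.49-fold difference (log2 fold change -2.17, standard error 0.106). *S1pr4* (ENSMUSG00000044199, chr10:81497747-81500132, minus strand), the S1P receptor found mainly on blood and lymphoid cells, stood at 121.6, 163.7, 125.6 and 131.4 CPM in Mock and at 45.6, 48.6, 39.8 and 46.3 CPM in GC7. Mock 2 was well above the other 3 Mock libraries, and all 4 GC7 libraries were under 50 CPM. The means of 135.5 ± 19.2 and 45.1 ± 3.72 CPM (SD, n = 4) differ 3.01-fold (log2 fold change -1.59, standard error 0.099). Of the other S1P receptors, *S1pr2*, which couples to G12/13 and restrains movement, fell from 11.5 ± 0.475 to 7.93 ± 0.571 CPM (SD, n = 4; log2 fold change -0.54, adjusted p = 0.000382 by edgeR's quasi-likelihood test with Benjamini-Hochberg adjustment over all tested genes, as for every adjusted p given here). *S1pr3* had 3 to 19 counts and *S1pr5* 0 to 5 counts per library, and neither was tested.

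Among the chemokine receptors of inflamed tissue, *Ccr2* (ENSMUSG00000049103, chr9:124101950-124113557, plus strand) stood at 12.7, 11.7, 12.96 and 13.4 CPM in Mock and at 3.65, 3.10, 1.51 and 3.80 CPM in GC7. GC7 3 was the lowest library and the other 3 GC7 libraries lay between 3.10 and 3.80 CPM, with group means of 12.7 ± 0.698 and 3.01 ± 1.05 CPM (SD, n = 4), a 4.21-fold difference (log2 fold change -2.05, standard error 0.194). Part of *Ccr2* is nearly the same as a stretch of another gene, so its reads could be split, and the handling of reads with several matches is not given in the sources used here. *Cxcr6* (ENSMUSG00000048521, chr9:123806475-123811760, plus strand), the receptor for Cxcl16 on tissue-homing T cells, stood at 92.4, 101.2, 87.1 and 87.9 CPM in Mock and at 38.3, 34.8, 23.7 and 36.3 CPM in GC7. GC7 3 was again lowest and no GC7 library came near the Mock range, with means of 92.2 ± 6.48 and 33.3 ± 6.52 CPM (SD, n = 4), a 2.77-fold difference (log2 fold change -1.47, standard error 0.122).

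*Cxcr4* (ENSMUSG00000045382, chr1:128588199-128592293, minus strand) had the smallest standard error of the 9, with 63.7, 69.8, 66.3 and 66.5 CPM in Mock and 28.6, 31.1, 31.7 and 34.3 CPM in GC7. The groups did not overlap, with means of 66.6 ± 2.51 and 31.4 ± 2.31 CPM (SD, n = 4), a 2.12-fold difference (log2 fold change -1.08, standard error 0.069). *P2ry14* (ENSMUSG00000036381, chr3:59113855-59153618, minus strand), a receptor for UDP-glucose and related sugars, stood at 31.5, 31.2, 30.1 and 27.7 CPM in Mock and at 13.1, 12.7, 10.2 and 11.4 CPM in GC7. These groups were also far apart, with means of 30.1 ± 1.71 and 11.8 ± 1.32 CPM (SD, n = 4), a 2.54-fold difference (log2 fold change -1.34, standard error 0.091).

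*Ccr7* (ENSMUSG00000037944, chr11:99144196-99155077, minus strand) was the exception, with 78.3, 90.6, 89.5 and 86.2 CPM in Mock and 54.9, 48.4, 78.5 and 62.8 CPM in GC7. The groups overlapped, since GC7 3 at 78.46 CPM was just above Mock 1 at 78.29 CPM. The means were 86.1 ± 5.56 and 61.1 ± 12.9 CPM (SD, n = 4), a 1.41-fold difference (log2 fold change -0.50, standard error 0.121), the smallest of the 9 and the only one under 2-fold. Leaving out GC7 3 moved the log2 fold change to -0.64, and leaving out GC7 2 to -0.40.

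As the other receptors were lower by more, the make-up of the set differed between groups. The summed level of the 9 genes was 505 to 594 CPM in Mock and 197 to 213 CPM in GC7. *Ccr7* took 16.1% ± 0.866 of this sum in Mock and 29.8% ± 5.96 in GC7 (SD, n = 4), whereas *Ltb4r1* took 9.36% ± 0.210 and 2.95% ± 0.468. *S1pr1* took 9.58% ± 0.397 in Mock and 5.60% ± 0.836 in GC7, and the share of *P2ry14*, at 5.63% ± 0.462 and 5.80% ± 0.760, differed by less than the spread between replicates.

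Levels of different genes were compared per kilobase of exon. In Mock, the mean CPM per kilobase ran from *S1pr4* (56.8) through *Cxcr6* (47.7), *Ccr7* (43.5), *Cxcr4* (36.8), *Ltb4r1* (36.0), *S1pr1* (16.9), *Cxcr3* (6.82) and *P2ry14* (2.72) to *Ccr2* (1.88). The ranges of *S1pr4* and *Cxcr6*, of *Cxcr6* and *Ccr7*, and of *Cxcr4* and *Ltb4r1* overlapped, so these neighbours were not separated. In GC7, *Ccr7* led with 30.9 CPM per kilobase, followed by *S1pr4* (18.9), *Cxcr4* (17.4), *Cxcr6* (17.2), *Ltb4r1* (4.32), *S1pr1* (3.76), *P2ry14* (1.07), *Cxcr3* (0.729) and *Ccr2* (0.446). Here *Ccr7* was clear of *S1pr4*, while *S1pr4* and *Cxcr4*, *Cxcr4* and *Cxcr6*, *Ltb4r1* and *S1pr1*, *P2ry14* and *Cxcr3*, and *Cxcr3* and *Ccr2* overlapped. *Ccr7* was thus the third in Mock and led in GC7, and *Ltb4r1*, level with *Cxcr4* in Mock, was level with *S1pr1* in GC7.

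The receptors also differed in how single libraries deviated from their group. Mock 2 was the highest Mock library for 7 of the 9 genes and the lowest for *Ccr2*. GC7 3 was the lowest GC7 library for 6 genes, *Ccr2*, *Cxcr3*, *Cxcr6*, *S1pr4*, *Ltb4r1* and *P2ry14*, and the highest for *Ccr7* and *S1pr1*. Across the 8 libraries, after subtraction of the group means, *Ccr7* and *S1pr1* deviated together (Pearson r = 0.87), as did *Cxcr6* with *Ltb4r1* (r = 0.93) and *Ccr2* with *Cxcr6* (r = 0.90), whereas *Ccr2* and *S1pr1* deviated in opposite directions (r = -0.81). Over the 7 libraries without GC7 3, r was 0.62 for *Ccr7* and *S1pr1* and 0.72 for *Cxcr6* and *Ltb4r1*. It was -0.16 for *Ccr2* and *Cxcr6* and -0.14 for *Ccr2* and *S1pr1*. The shared deviation of *Ccr2* with *Cxcr6* and its opposite deviation to *S1pr1* thus rest on GC7 3. The genes share libraries and depth, so the correlations are a description.

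**Figure D2:**
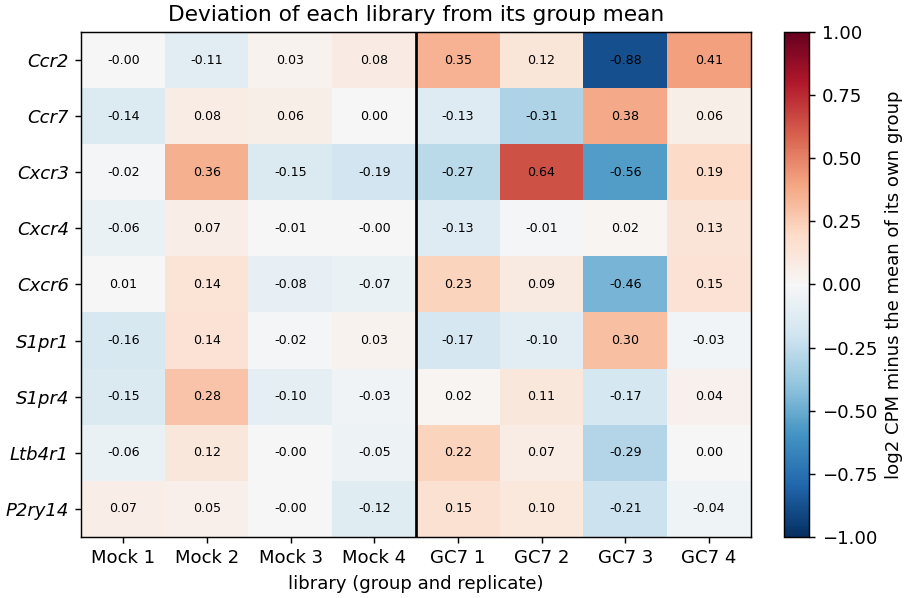
Deviation of each library from the mean of its own group, as log2 CPM, for the 9 receptor genes (rows) in the 8 libraries (columns). In GC7 3, *Ccr7* and *S1pr1* are above their group mean and *Ccr2*, *Cxcr3*, *Cxcr6*, *S1pr4*, *Ltb4r1* and *P2ry14* are below it.

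The tested protein-coding genes whose log2 CPM over the 8 libraries was most like that of a receptor were *Cnot3* for *Ccr2* (Pearson r = 0.994), *Pik3ip1* for *Ccr7* (0.993), *Rpa1* for *Cxcr3* (0.998), *Serpinb1a* for *Cxcr4* (0.999), *Rps6ka1* for *Cxcr6* (0.999), *Prkab1* for *S1pr1* (0.999), *Fam162a* for *S1pr4* (0.9996), *Ndrg1* for *Ltb4r1* (0.999) and *Rap1b* for *P2ry14* (0.998). Second in likeness were *Gorasp2*, *Pdhb*, *Dnajc21*, *Dhrs1*, *Map7d1*, *Klc3*, *Kcnn4*, *Ppme1* and *Map2k1*, in the same order of receptors. Within the set, *Ltb4r1* and *P2ry14* were most alike (r = 0.995), and *Ccr7* had the lowest r with each of the other 8, from 0.62 with *Ccr2* to 0.87 with *S1pr1*. As the samples form 2 groups, such an r mainly records the difference between them.

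The genes next to the receptors did not share 1 pattern. *Cxcr6* lies within *Fyco1*, and *P2ry14* within *Med12l*, each on the opposite strand and without shared exon bases. *Fyco1* stood at 46.9 ± 8.81 CPM in Mock and 50.9 ± 3.10 in GC7 (SD, n = 4; log2 fold change 0.12, adjusted p = 0.403, edgeR), and *Med12l* at 7.73 ± 1.46 and 7.87 ± 0.720 (log2 fold change 0.03, adjusted p = 0.889). Neither passed the test. *Gna15*, 2174 bases from *S1pr4*, fell, whereas *Ncln*, 1355 bases on the other side of *S1pr4*, stood at 98.2 ± 6.79 and 84.4 ± 5.63 CPM and did not pass at the threshold of 0.01 (log2 fold change -0.22, adjusted p = 0.0179, edgeR). *Ltb4r2*, the low-affinity leukotriene B4 receptor 824 bases from *Ltb4r1*, had 9 to 31 counts per library and was not tested.

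Of 19 other chemokine receptors examined, 4 were tested, of which 3 fell, each by more than 2-fold, beside 23.5% and 5.31% of all tested genes, with a median log2 fold change of -1.18 over the 4. *Xcr1*, the receptor for Xcl1, is 1 of the 3 and stood at 5.14 ± 0.739 CPM in Mock and 0.631 ± 0.187 CPM in GC7 (SD, n = 4; log2 fold change -3.00), but it was above 3 CPM in Mock alone, so it entered the test through the group where it is high and its p is not given. *Ccr4*, the receptor for Ccl17 and Ccl22, fell from 35.6 ± 5.14 to 15.6 ± 2.09 CPM (log2 fold change -1.19, adjusted p = 4.08e-06, edgeR). *Ccrl2*, which binds ligand without signalling, did not pass (4.32 ± 0.887 and 3.86 ± 0.637 CPM, adjusted p = 0.429). Among those not tested, *Cx3cr1* had 0 to 3 counts and *Cxcr5* 4 to 14 counts per library.

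The other lipid and nucleotide receptors moved in both directions. Of 38 examined, 17 were tested, with 8 lower, 4 higher and 5 not passing, beside 23.5% lower and 23% higher of all tested genes, 2 in each direction by more than 2-fold, and a median log2 fold change of -0.17. *Cysltr1*, a receptor for cysteinyl leukotrienes and 1 of the 8, stood at 6.76 ± 0.882 CPM in Mock and 1.96 ± 0.405 CPM in GC7 (SD, n = 4; log2 fold change -1.77), and it too was above 3 CPM in Mock alone. *Gpr55*, a receptor for lysophosphatidylinositol, fell from 44.5 ± 5.43 to 16.4 ± 2.05 CPM (log2 fold change -1.44, adjusted p = 3.43e-07, edgeR). The opposite direction was taken by *Gpr34*, a receptor for lysophosphatidylserine, which rose from 6.66 ± 0.183 to 17.2 ± 3.71 CPM (log2 fold change 1.37, adjusted p = 4.58e-06), and by *Ptger2*, a prostaglandin E2 receptor, which rose from 8.77 ± 0.819 to 18.4 ± 1.23 CPM (log2 fold change 1.07, adjusted p = 1.36e-06). *Ptger4*, the other tested prostaglandin E2 receptor, had a mean of 46.5 CPM in both groups (log2 fold change 0.00, standard error 0.077). *P2ry10*, a lysophosphatidylserine receptor, did not pass either (111 ± 6.24 and 110 ± 9.37 CPM, adjusted p = 0.869).

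**Figure D3:**
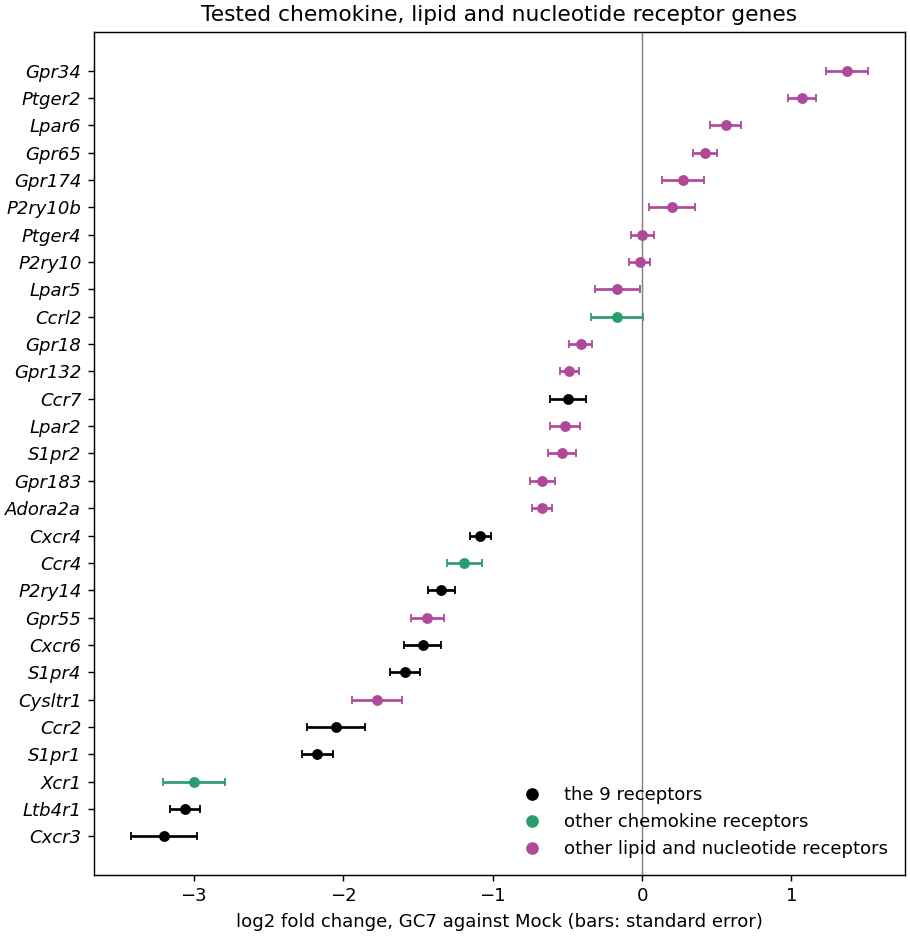
Log2 fold change, GC7 against Mock, with its standard error, for the 9 receptors (black) and the tested genes among the other chemokine receptors (green, 3 of 4 shown) and the other lipid and nucleotide receptors (purple), in order of value. The 9 receptors run from -3.20 (*Cxcr3*) to -0.50 (*Ccr7*), and *Gpr34* and *Ptger2* lie above 1.

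Of the chemokines that these receptors bind, those named here had few or no counts. *Ccl2* (for Ccr2) and *Cxcl9* and *Cxcl11* (for Cxcr3) had no count in any library. *Cxcl12* (for Cxcr4) had at most 1 count, *Cxcl10* 6 to 28 and *Cxcl16* 1 to 17 counts per library. Counts of *Ccl19* and *Ccl21a* (for Ccr7) are not reported here. The list held 33 chemokine symbols, some of which were not matched to a single gene and so were not examined. Of the 33, 6 were tested, with 4 higher, 1 lower and 1 not passing, beside 23% higher and 23.5% lower of all tested genes, and a median log2 fold change of 1.51. *Xcl1*, 1 of the 4, stood at 0.708 ± 0.129 CPM in Mock and 26.3 ± 3.74 CPM in GC7 (SD, n = 4; log2 fold change 5.20), and it was above 3 CPM in GC7 alone, so it entered the test through the group where it is high. Other inflammatory chemokines moved in both directions: *Ccl3* rose from 3.61 ± 0.750 to 18.1 ± 3.12 CPM (log2 fold change 2.32, adjusted p = 1.80e-07, edgeR) and *Ccl4* from 4.32 ± 0.842 to 19.4 ± 1.60 CPM (log2 fold change 2.16, adjusted p = 5.09e-08), whereas *Ccl5* fell from 20.4 ± 4.86 to 4.81 ± 0.568 CPM (log2 fold change -2.08, adjusted p = 4.72e-07).

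Of 20 enzymes and transporters for the lipid and nucleotide ligands, 9 were tested, with 2 higher and 3 lower, beside 23% and 23.5% of all tested genes, none by more than 2-fold, and a median log2 fold change of -0.12. Both higher genes encode enzymes that degrade S1P: the S1P phosphatase *Sgpp1* rose from 57.0 ± 5.08 to 101 ± 5.88 CPM (SD, n = 4; log2 fold change 0.83, adjusted p = 1.68e-06, edgeR) and the S1P lyase *Sgpl1* from 31.4 ± 3.16 to 46.2 ± 2.86 CPM (log2 fold change 0.56, adjusted p = 0.000103). The S1P-producing kinase *Sphk2* did not pass (40.5 ± 2.88 and 38.3 ± 3.53 CPM, adjusted p = 0.422), and *Sphk1* had 0 to 6 counts. *Lta4h*, which makes leukotriene B4, fell from 178 ± 5.35 to 139 ± 3.62 CPM (log2 fold change -0.35, adjusted p = 0.000133), and *Ugp2*, which makes UDP-glucose, did not pass (59.7 ± 3.15 and 54.9 ± 1.33 CPM, adjusted p = 0.108).

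Of 26 tested G protein and receptor regulator genes, 15 fell and 4 rose, beside 23.5% and 23% of all tested genes, with a median log2 fold change of -0.36. *Arrb1*, a β-arrestin that turns receptors off, fell from 296 ± 31.8 to 95.5 ± 17.7 CPM (SD, n = 4; log2 fold change -1.63, adjusted p = 4.30e-07, edgeR). *Gna15*, a Gq class subunit of blood cells, fell from 43.9 ± 6.10 to 15.9 ± 0.545 CPM (log2 fold change -1.46, adjusted p = 1.08e-07), and *Gna13* from 289 ± 26.5 to 137 ± 10.8 CPM (log2 fold change -1.07, adjusted p = 3.69e-07). *Gnai2*, the main Gi subunit of lymphocytes, fell by less, from 813 ± 54.9 to 538 ± 21.7 CPM (log2 fold change -0.60, adjusted p = 1.19e-05). *Rgs12*, which speeds the shut-off of Gi, rose from 9.93 ± 1.80 to 29.7 ± 4.67 CPM (log2 fold change 1.58, adjusted p = 1.35e-06). *Cd69*, whose product binds S1pr1 and removes it from the cell surface, rose from 181 ± 8.09 to 227 ± 19.2 CPM (log2 fold change 0.33, adjusted p = 0.00161).

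Of 29 migration effectors, all tested, 20 fell, none rose and 9 did not pass, with a median log2 fold change of -0.46, beside 23.5% lower among all tested genes. More than 2-fold lower were 2 of them. *Rasgrp2*, the exchange factor that activates Rap1 for integrin adhesion, fell from 301 ± 29.2 to 79.9 ± 8.23 CPM (SD, n = 4; log2 fold change -1.91, adjusted p = 6.44e-09, edgeR). *Pik3r6*, an adaptor of the phosphoinositide 3-kinase that answers to G proteins, stood at 4.33 ± 0.656 CPM in Mock and 2.11 ± 0.153 CPM in GC7 (log2 fold change -1.04), and it was above 3 CPM in Mock alone. The kinase subunit *Pik3cg* fell from 146 ± 17.3 to 85.8 ± 6.00 CPM (log2 fold change -0.76, adjusted p = 1.39e-05).

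Of 19 tested transcription regulators linked to these receptors, 9 fell and 2 rose, beside 23.5% and 23% of all tested genes, with a median log2 fold change of -0.23. With library totals in place of TMM scaling, which moves the median of all genes to 0.11, 7 fell and 3 rose. *Klf2*, an activator of *S1pr1*, stood at 130.6, 197.3, 129.3 and 137.3 CPM in Mock and at 66.5, 65.4, 36.9 and 61.9 CPM in GC7. Mock 2 was far above and GC7 3 far below the rest of their groups, and the groups did not overlap (log2 fold change -1.36, standard error 0.180, adjusted p = 4.04e-05, edgeR). Without both libraries, a choice made after seeing the data, the log2 fold change of *Klf2* was -1.03. *Foxo1*, which acts upstream of *Klf2* and *Ccr7*, fell from 105 ± 4.31 to 78.3 ± 3.68 CPM (SD, n = 4; log2 fold change -0.42, adjusted p = 7.05e-05). *Zfp683* (Hobit) and *Prdm1* (Blimp-1), repressors of lymphoid egress and homing genes in resident cells, also fell, from 25.3 ± 2.41 to 7.86 ± 1.53 CPM (log2 fold change -1.68, adjusted p = 3.85e-07) and from 55.6 ± 6.31 to 22.5 ± 1.63 CPM (log2 fold change -1.30, adjusted p = 1.85e-07). *Tbx21* (T-bet), an activator of *Cxcr3*, did not pass (18.5 ± 2.75 and 17.4 ± 1.54 CPM, adjusted p = 0.527). *Runx3* fell from 246 ± 17.7 to 126 ± 16.5 CPM (log2 fold change -0.97, adjusted p = 2.99e-06), and *Tcf7*, a factor of naive and memory cells, rose from 18.6 ± 2.11 to 58.9 ± 9.67 CPM (log2 fold change 1.66, adjusted p = 2.03e-07).

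**Figure D4:**
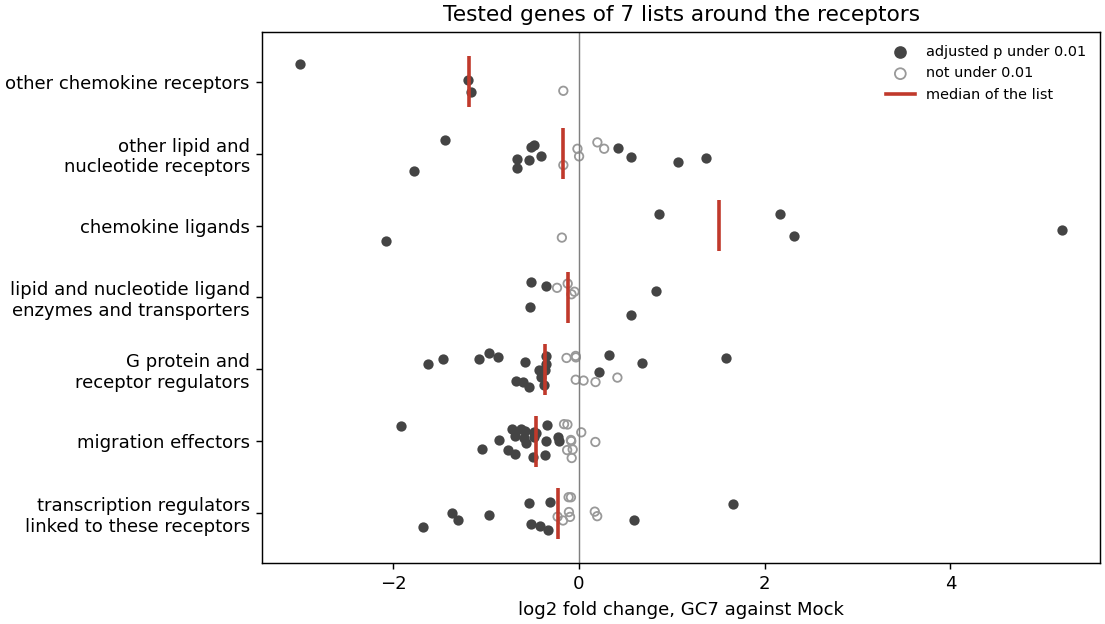
Log2 fold change, GC7 against Mock, of the tested genes in 7 lists of receptors, ligands, enzymes, regulators and effectors, with filled points for an adjusted p under 0.01 and a red line at each list's median. Filled points of the other chemokine receptors and of the migration effectors lie below 0, and those of the other 5 lists lie on both sides. *Xcr1*, *Cysltr1*, *Xcl1* and *Pik3r6* are among the filled points, but they entered the test through the group where they are high.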

How the data were processed

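Libraries from 4 Mock and 4 GC7 cultures were used, grouped by the sample labels. Per the labels and the paper's methods, the authors trimmed reads with Cutadapt, aligned them to GRCm38 with STAR and deposited raw counts per Ensembl gene from featureCounts, 1 table per library, without normalisation or pooling. The strand setting and the handling of reads with several matches are not given in the sources used here. Receptors of the set with near copies (200 bases at 90% identity, BLAST 2.17.0) were therefore marked. Genes of the other lists were not searched for copies.

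Genes above 3 CPM in at least 4 libraries (11189) were fitted with edgeR 4.0.16 in R 4.3.3. The TMM factors were 0.935 to 0.983 in Mock and 1.03 to 1.04 in GC7. The group was the only term of the quasi-likelihood test, with Benjamini-Hochberg adjustment over all 11189 genes. Genes with an adjusted p under 0.01 are described as having risen or fallen. The CPM minimum equals 52.6 to 75.9 counts per library. Values are TMM-scaled CPM, and correlations used log2 CPM with a prior count of 2. The test was also run on simulated counts, with far fewer changed genes than were called here, so that run does not check it under these conditions. The receptors and the gene lists were chosen with earlier results of these data known. Named in each list are genes past the test with more than 2-fold change, at most 4 in each direction, and receptors that share a ligand with or lie beside one of the set. *Ccrl2*, *Ptger4*, *P2ry10*, *Sgpp1*, *Sgpl1*, *Sphk2*, *Lta4h*, *Ugp2*, *Gnai2*, *Cd69*, *Pik3cg*, *Foxo1*, *Tbx21*, *Runx3* and genes listed without a test were named after their values were seen. Items counted in the lists but not named are not reported here.

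Alternatives were RLE factors, library totals, no filter, filterByExpr, DESeq2 1.42.0, an adjusted p under 0.05, the length of the longest transcript, the replicate number as a block, each library left out and, chosen after seeing the data, Mock 2 and GC7 3 left out together. The tables of the 4 replicates per group are described as biological replicates, without saying which animals or cultures they came from, so that p-values measure the spread between these samples. Python 3.11.15, numpy 2.4.6, pandas 2.3.3, scipy 1.17.1 and matplotlib 3.10.9 were used beside R.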

Additional observations from a re-analysis of the deposited data

Results flagged for a closer look

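Of 68 groups of 4 libraries examined, 4 held a library far from the rest: its distance to the closest one, as a share of the group's range (the ratio in brackets), passed Dixon's critical value. Chance alone gives about 1 group in 20. None of the 9 receptors was among them. *Klf2* appeared in both groups: Mock 2 was the highest Mock library, at 197 CPM (ratio 0.882), and GC7 3 the lowest GC7 library, at 36.9 CPM (ratio 0.844). *Arrb1* in Mock was lowest in Mock 2, at 248 CPM (ratio 0.881). *Ccl4* in GC7 was highest in GC7 1, at 21.8 CPM (ratio 0.905).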

How the results depend on the processing

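The log2 fold changes of the 9 receptors stayed negative under every alternative run, with a median of -1.49 under library totals and -1.59 under RLE factors and DESeq2. Under library totals, *Cxcr4* was at -0.99, just under 2-fold. There, 13 genes of the G protein list fell and 5 rose, and 17 migration effectors fell. The counts for the receptor lists, chemokine ligands and ligand enzymes and transporters stayed as in the main fit. With 1 library left out in turn, the median ran from -1.64 to -1.48, and the genes passing numbered 3 in each fit for the other chemokine receptors, 12 to 14 for the other lipid and nucleotide receptors, 5 in each for the chemokine ligands and for the ligand enzymes and transporters, 16 to 19 for the G protein list, 18 to 20 for the migration effectors and 10 to 12 for the transcription regulators. Without Mock 2 and GC7 3 together, an alternative chosen after seeing the data, the median was -1.43 and the counts were 3, 13, 5, 6, 20, 22 and 12. Without a filter, 8 other chemokine receptors (7 lower, 1 higher), 9 chemokine ligands and 8 ligand enzymes and transporters passed, and with filterByExpr 8 of the last, since more genes were tested. *Fyco1* changed sign without Mock 2 (-0.01) and without Mock 2 and GC7 3 (-0.0067), and *Med12l* without Mock 2 (-0.10), without GC7 3 (-0.04) and without both (-0.16), none past the threshold, with ranges up to 0.19 and 0.086 when 1 library was left out. The cause was not tested. With the longest transcript as length, the order in Mock was the same, and in GC7 *Cxcr6* and *Cxcr4* changed places and the ranges of *P2ry14* and *Cxcr3* no longer overlapped.

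Samples with the same replicate number had correlations of 0.27, -0.12, 0.20 and -0.18 in their deviations. Those with different numbers ran from -0.31 to 0.42. So few values cannot show whether the numbers pair the cultures. Adding a replicate block to the model gave a median of -1.58 and left 16 genes of the G protein list and 18 migration effectors past the threshold, with the other counts as before (3, 12, 5, 5 and 11). Depth limits *Cxcr3* and *Ccr2* in GC7 and the receptors with few counts.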
